A study of Mus musculus with 6 samples.

Results

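Transcripts of 9 genes whose products hold cells in G1 or carry them into senescence were measured. They were those of the INK4 inhibitors Cdkn2a, Cdkn2b, Cdkn2c and Cdkn2d, the CIP/KIP inhibitor Cdkn1b, the tumour suppressor Trp53, and the pocket proteins Rb1, Rbl1 and Rbl2. Every probe that the array design names for one of these 9 genes, among 29742 names, was taken, whatever its value, which gave 14 of the 41174 non-control probes. Cdkn1b, Cdkn2c, Trp53, Rb1 and Rbl2 had 2 probes each and are numbered below in the order of their probe identifiers. The other 4 genes had 1 probe each.

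The cells were primary mouse embryonic fibroblasts, cultured from embryos of day 15 and passaged at confluence. Wild type cells were compared with mutant cells, called WS in the labels, that lack part of the helicase domain of Wrn, the mouse homologue of the gene mutated in Werner syndrome (Wrn Δhel/Δhel). Both came from mice of a mixed background of Black Swiss and another laboratory strain. Treated cells received 0.5 mM H2O2 for 1 hour and then fresh medium, and RNA was taken 24 hours later. On 6 two-colour oligonucleotide arrays, RNA was hybridised in pairs, with 2 arrays per comparison. Replicates 1 and 2 of the wild type set paired H2O2-treated with untreated RNA, replicates 1 and 2 of the mutant set did the same, and replicates 3 and 4 paired RNA of both genotypes without treatment. The number of embryos behind a culture is not given in the sources used here. The replicates are described as separate biological samples. Each value below is a log2 ratio of the 2 channels of an array, Cy5 over Cy3, unless an intensity is named.

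INK4 proteins bind the cyclin D-dependent kinases and keep them from phosphorylating the retinoblastoma family. CIP/KIP proteins such as p27, the product of Cdkn1b, bind cyclin E and cyclin A kinases. Unphosphorylated Rb1 and its relatives p107 (Rbl1) and p130 (Rbl2) hold E2F factors, which keeps genes of DNA synthesis silent. Cdkn2a is an unusual locus: from a pair of first exons it makes the INK4 protein p16Ink4a and, in another reading frame, p19Arf, which stabilises p53 by binding Mdm2. Fibroblasts of mouse embryos are known to accumulate both products during culture and to stop dividing through the Arf and p53 arm. Cdkn2b lies beside Cdkn2a and encodes p15Ink4b.

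Only 1 probe stood for Cdkn2a, and the array annotation ties it to 1 of the gene's 2 RefSeq transcripts, the one that encodes p19Arf. The position of the probe within the gene was not available here, so the signal of the Arf and Ink4a transcripts could not be told apart. The starts of both transcripts are shown because they are different promoters of the member with the largest difference between the genotypes. The start of Cdkn2d is shown because it was the other member that differed between the genotypes. The start of Rbl1 is shown because it held an E2F motif, as the Arf start did, though in another of the sequences named below. Each run holds the 250 bases before a RefSeq start, 5′ to 3′ on the strand of the gene, build GRCm38.p6. Capitals mark GC boxes (GGGCGG) and E2F motifs (TTTCCCGC, TTTCGCGC, TTTGGCGC or TTTGCCGC), searched on both strands.
Cdkn2a, first (Arf) start, chr4:89294620-89294869, minus strand: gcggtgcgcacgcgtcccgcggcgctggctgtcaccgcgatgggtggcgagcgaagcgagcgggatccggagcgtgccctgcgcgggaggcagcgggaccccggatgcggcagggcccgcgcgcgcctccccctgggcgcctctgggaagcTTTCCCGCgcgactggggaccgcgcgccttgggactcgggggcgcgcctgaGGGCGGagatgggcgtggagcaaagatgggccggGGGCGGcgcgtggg
Cdkn2a, second (Ink4a) start, chr4:89282193-89282442, minus strand: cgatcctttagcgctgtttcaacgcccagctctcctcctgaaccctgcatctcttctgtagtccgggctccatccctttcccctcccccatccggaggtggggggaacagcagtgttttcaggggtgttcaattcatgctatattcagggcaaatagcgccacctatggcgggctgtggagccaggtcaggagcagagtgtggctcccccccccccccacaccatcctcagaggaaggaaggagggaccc
Cdkn2d, chr9:21291210-21291459, minus strand: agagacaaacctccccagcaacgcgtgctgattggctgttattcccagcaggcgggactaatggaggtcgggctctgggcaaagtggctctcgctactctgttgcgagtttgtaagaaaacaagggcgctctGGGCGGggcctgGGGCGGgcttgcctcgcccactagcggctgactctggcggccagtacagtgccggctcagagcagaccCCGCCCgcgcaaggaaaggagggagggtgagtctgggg
Rbl1, chr2:157204535-157204784, minus strand: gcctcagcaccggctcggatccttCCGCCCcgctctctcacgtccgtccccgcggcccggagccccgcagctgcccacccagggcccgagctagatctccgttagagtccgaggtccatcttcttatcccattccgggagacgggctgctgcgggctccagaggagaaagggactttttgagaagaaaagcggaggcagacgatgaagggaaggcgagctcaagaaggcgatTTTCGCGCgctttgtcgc

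The Arf start held 1 E2F motif and 2 GC boxes, with 40 CpG dinucleotides and 78.4% G or C. The Ink4a start held neither motif and 7 CpG dinucleotides. Of the 10 windows found for 8 members, the Arf start and the Rbl1 start were the 2 that held an E2F motif, against 1.86% of 32851 windows of this length before RefSeq starts. A GC box was present in 5 of the 10, against 32.7% of all windows. Both shares cover windows of any base composition, and windows matched to the members in G and C content were not counted. Rb1 had no window in the table. These matches describe the letters of the windows and no binding was measured.

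All 14 probes were well above background in Cy3 on every array, and 10 of them were so in Cy5. No member spot was saturated. The software marked between 0.40% and 22.6% of the spots of an array as outliers, the most on replicate 2 of the wild type treatment arrays, and these spots were left out. Among the members this removed Cdkn2b and Cdkn2c probe 2 from that array, and Trp53 probe 1 from every array except replicate 4 of the untreated pair of genotypes. The 4 treatment arrays were extracted with the software on 1 day and the 2 arrays of mutant against wild type cells on 2 other days. H2O2-treated RNA was always in Cy5, so a dye preference of a probe and its response cannot be told apart within a genotype. Such a preference cancels in the difference between the responses of the genotypes.

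The labels give wild type RNA to Cy5 on the arrays of mutant against wild type cells, whereas a supplement of the study lists the ratio as mutant over wild type. The ratios are read here as mutant over wild type, a direction that is likely rather than settled. Its basis is a comparison that does not use these arrays, untreated mutant against untreated wild type RNA within the Cy3 channel of the treatment arrays. Over 40228 probes the 2 comparisons correlated with r = 0.59, and 65.6% of the probes had the same sign. Among 4682 probes that were called and had a mean log2 intensity above 6, r was 0.88 and 92.4% had the same sign. With the dyes of the labels every sign in the comparison of untreated cells below is turned.

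The targeted gene gave no clear check of the labels. Wrn had 4 probes, and the deletion removes only part of the gene, so a probe outside it checks nothing. Of these, 3 were between -0.0061 and 0.38 in untreated mutant cells and were not called. The fourth was called lower (adjusted p = 0.0115 by limma), but its mutant signal was not well above background and no bound on the fold could be set.

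Cdkn2a was higher in untreated mutant cells and Cdkn2d, which encodes p19Ink4d, was lower. The Cdkn2a log2 ratio was 2.14 on replicate 3 and 2.36 on replicate 4. Both arrays lay far above 0 and within 0.3 of each other. The mean was 2.25 ± 0.21 (SE, n = 2 arrays), a 4.75-fold difference, with an adjusted p of 0.00203 by limma over all probes. The Cdkn2d log2 ratio was -0.96 and -0.70. Its mean was -0.83 ± 0.16 (SE, n = 2), a 1.78-fold lower signal, with an adjusted p of 0.0158 by limma. These were the 2 called among 14 member probes, or 14.3%, whereas 19.6% of all 41099 probes tested were called in this comparison. At an unadjusted p under 0.05, 6 members passed, against 35.9% of all probes, and at the study's own thresholds Cdkn2a alone did, against 1.76%. The share of members that passed was thus no higher than that of the array as a whole at an adjusted p under 0.05. At the other thresholds it was higher, though from 6 and 1 of 14 probes. By size, the Cdkn2a difference exceeded that of 98.9% of the probes tested and the Cdkn2d difference that of 81.1%.

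**Figure D1:**
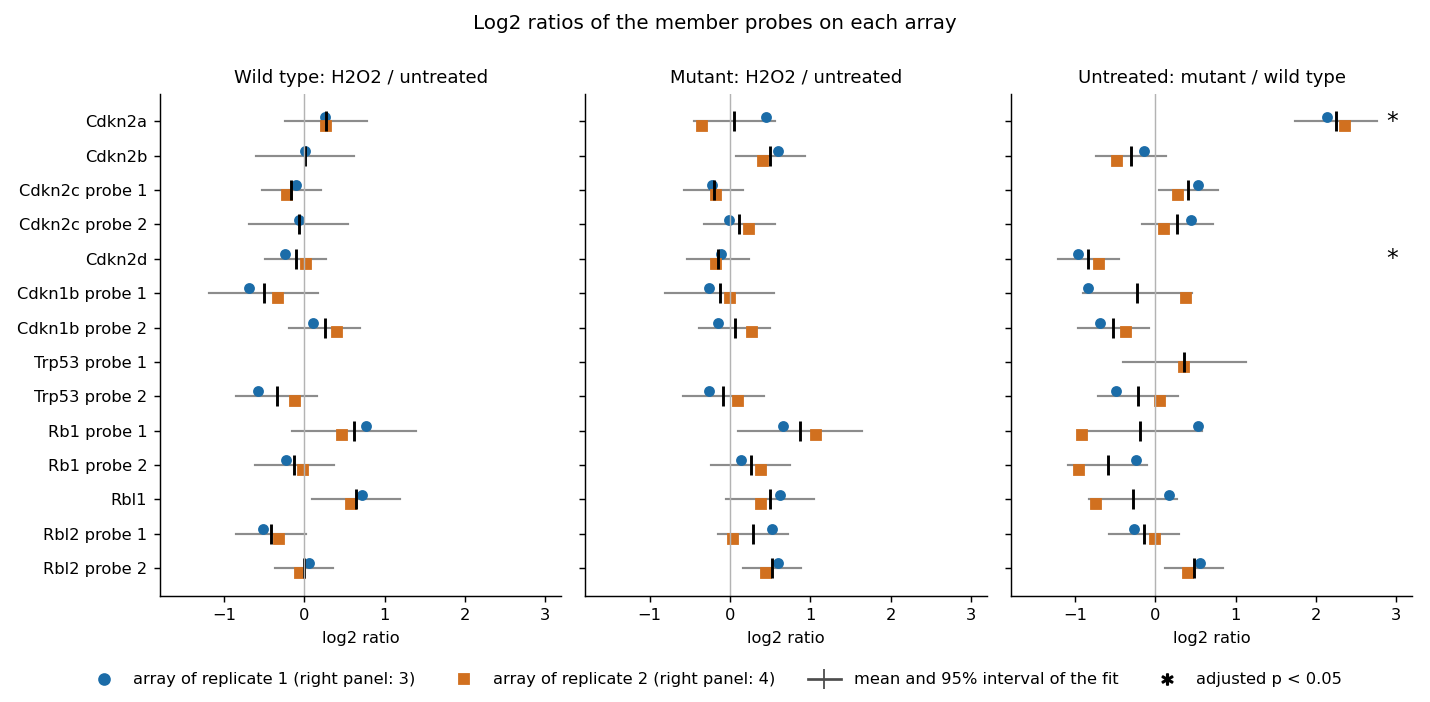
Log2 ratio of each member probe on each array (circle, replicate 1 or 3; square, replicate 2 or 4), with the mean and 95% interval of the fit (tick and grey line) and a star at an adjusted p under 0.05. Cdkn2a sits at 2.14 and 2.36 in the right panel, apart from every other member, and the star of Cdkn2d stands at a mean of -0.83.

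Fibroblast markers were higher in untreated mutant cells on these arrays. Of 10 such genes, 9 were well above background in both dyes on every array. Of their 17 probes, 7 (41.2%) were called higher, for 6 of 9 genes, and none lower, beside the 9.83% of all probes called higher, and the median was 1.14. Col3a1, a fibrillar collagen, was called by 1 probe with a value on 1 array, at 1.55, while its other probes were at -1.29 and -0.75. The calls of Col1a1, at 1.01, and of a Pdgfra probe, at 2.18, also came from 1 array each. Other probes of Col1a1, at 0.87 and 0.80, and of Dcn, at 0.63, were not called. Between arrays, within Cy3, none of 14 probes was called and the median was 0.54. The log2 of the summed intensity of that list, with the dyes as read, was 13.4 to 14.6 in untreated wild type cells and 14.9 to 15.8 in untreated mutant cells. In treated cells it was 11.8 to 15.4 and 14.8 to 15.9. Bright probes of the list lacked a value on some arrays. A Vim probe with a mean log2 intensity of 15.1 had none on wild type treatment replicate 1 and mutant treatment replicate 2. Col1a2 had none on either wild type treatment array. The part of these missing values in the differences of the sum was not tested. For the 8 macrophage markers, 4 of which were well above background throughout, the sum in untreated cells was 9.38 to 9.62 and 10.0 to 10.2. On the arrays of mutant against wild type cells, however, 1 of 17 macrophage probes was called higher and 1 lower (5.88% each), with a median of 0.03. The part of the fibroblast shift in the Cdkn2a difference was not tested, and in bulk samples more cells of a kind and more RNA per cell cannot be told apart.

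The other INK4 probes lay closer to 0. Cdkn2b was at -0.14 and -0.47, with a mean of -0.30 ± 0.18 (SE) and an adjusted p of 0.268. Its neighbour Cdkn2a therefore differed without a called difference at Cdkn2b, and the 95% interval of Cdkn2b ran from -0.74 to 0.13. The 2 probes of Cdkn2c, which encodes p18Ink4c, were both above 0 on both arrays, at 0.53 and 0.28 for probe 1 and at 0.44 and 0.11 for probe 2. Their means of 0.41 and 0.27 had adjusted p-values of 0.11 and 0.323.

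Cdkn1b, which restrains entry into S phase, gave no call. Probe 1 was at -0.84 on replicate 3 and at 0.38 on replicate 4, so the arrays disagreed in sign. Probe 2 was at -0.69 and -0.36, with a mean of -0.53 ± 0.19 (SE) and an adjusted p of 0.093. This probe was not well above background in Cy5 on either array, so its mutant signal is only a bound: it was at least 1.44-fold lower in the mutant. On replicate 3 alone, with the spread taken from the treatment arrays, both probes passed the test, at adjusted p-values of 0.0116 and 0.036, as did 28.9% of all probes.

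Trp53 was measured mainly by probe 2, at -0.49 and 0.06 on the 2 arrays. Its mean of -0.22 ± 0.21 (SE) had an adjusted p of 0.498, and its 95% interval ran from -0.72 to 0.28. Trp53 probe 1 had a value on replicate 4 alone, 0.36. With outlier spots kept, its ratios of -0.52 and 0.38 had opposite signs.

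Rb1 and Rbl1 gave ratios that differed between the 2 arrays. Rb1 probe 1 was at 0.53 on replicate 3 and at -0.92 on replicate 4, and Rbl1 was at 0.17 and -0.74. Rb1 probe 2 was below 0 on both, at -0.24 and -0.95, with a mean of -0.60 ± 0.21 (SE) and an adjusted p of 0.088. On replicate 4 alone all 3 of these probes passed the test, with adjusted p-values of 0.00644 for Rb1 probe 1, 0.00335 for Rb1 probe 2 and 0.0108 for Rbl1, where 43.2% of all probes passed. On replicate 3 alone none of the 3 did. Rb1 probe 2 was not well above background in Cy5 on replicate 4. Rbl2 probe 2 was above 0 on both arrays, at 0.56 and 0.41, with a mean of 0.48 ± 0.15 (SE) and an adjusted p of 0.0678. It passed at an adjusted p of 0.0339 when probes with a mean log2 intensity of 6 or less were left out. Rbl2 probe 1 was at -0.26 and -0.0093, so the 2 probes of this gene did not give the same direction.

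The genotypes could also be compared between arrays, within 1 dye, on the treatment arrays. Normalised log2 intensities of Cdkn2a in untreated cells, all in Cy3, were 5.43 and 5.20 in wild type and 6.62 and 7.46 in mutant RNA. In treated cells, all in Cy5, they were 5.68 and 5.47 in wild type and 7.07 and 7.11 in mutant cells. The 4 wild type channels thus ended at 5.68 and the 4 mutant channels began at 6.62, whatever the direction of the other arrays. Of 29913 probes with all 8 channels, 7% had every mutant channel above every wild type channel. On the arrays of mutant against wild type cells, as read, the wild type channel gave 4.94 and 5.02 and the mutant channel 7.07 and 7.38, so that no overlap arose over all 12 channels either, as for 2.68% of the 27041 probes with 12 channels.

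For Cdkn2d the order was the reverse. On the treatment arrays the 4 wild type channels ran from 9.27 to 9.61, with a median of 9.55, and the 4 mutant channels from 8.32 to 8.60, with a median of 8.43. Every mutant channel lay below every wild type channel for 10.9% of probes. With the other arrays as read, the 6 wild type channels ran from 9.10 to 9.75 and the 6 mutant channels from 8.32 to 8.78, and 4.18% of probes had every mutant channel lower. Of the 11 member probes with all channels, Cdkn2a and Cdkn2d were the 2 whose genotypes did not overlap, over 8 channels and over 12 as read. Among all probes the mutant was wholly higher for 7% and wholly lower for 10.9% over 8 channels, and for 2.68% and 4.18% over 12. Over 8 channels the share of members was thus near that of all probes. With the dyes of the labels the 12 channels overlapped for all 11, with wild type at 5.20 to 7.38 and mutant at 4.94 to 7.46 for Cdkn2a. The channels of an array share a hybridisation, so these are 6 arrays and not 12 samples.

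**Figure D2:**
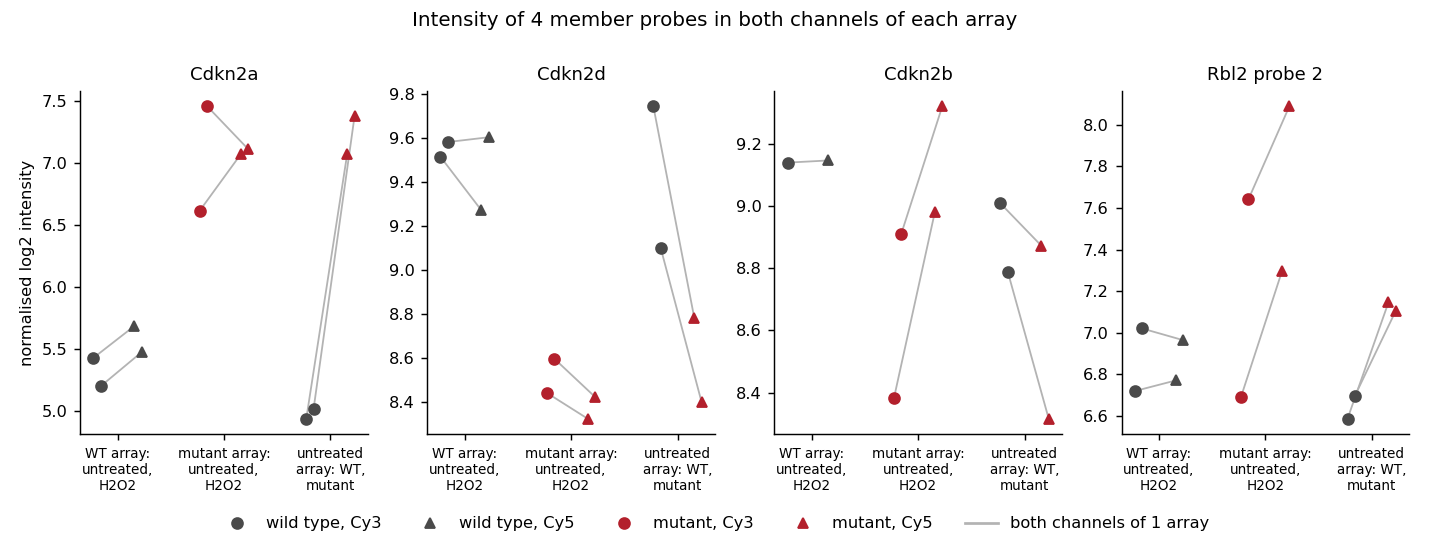
Normalised log2 intensity of 4 member probes in Cy3 (circles) and Cy5 (triangles), grey for wild type and red for mutant RNA with the dyes as read, with a line between both channels of an array. For Cdkn2a all red points lie at or above 6.62 and all grey points at or below 5.68, and for Cdkn2d all red points lie at or below 8.78 and all grey points at or above 9.10.

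Tested between arrays, these differences had wider intervals. Untreated mutant minus untreated wild type within Cy3 was 1.72 for Cdkn2a, with a 95% interval of 0.83 to 2.61 and an adjusted p of 0.122. Treated mutant minus treated wild type within Cy5 was 1.51, with an interval of 0.66 to 2.36 and an adjusted p of 0.204. For Cdkn2d the same differences were -1.03 (interval -1.85 to -0.22, adjusted p = 0.373) and -1.07 (interval -1.92 to -0.21, adjusted p = 0.45), all by limma on 2 against 2 arrays. No member was called in either comparison, where 0.487% and 0.328% of all probes were. At an unadjusted p under 0.05, Cdkn2a and Cdkn2d were the 2 members that passed in each, against 10.1% and 8.94% of all probes. The Cdkn2a difference within Cy3 was called when probes with a mean log2 intensity of 6 or less were left out, with an adjusted p of 0.0131, and with outlier spots kept, with an adjusted p of 0.0495. It was also called without either of the wild type arrays (adjusted p = 0.00112 without replicate 1 and 0.0388 without replicate 2) and not without either of the mutant arrays. Within Cy5 it was called without wild type replicate 1 (adjusted p = 0.0275). Over all probes the median difference was -0.10 within Cy3 and -0.09 within Cy5.

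**Figure D3:**
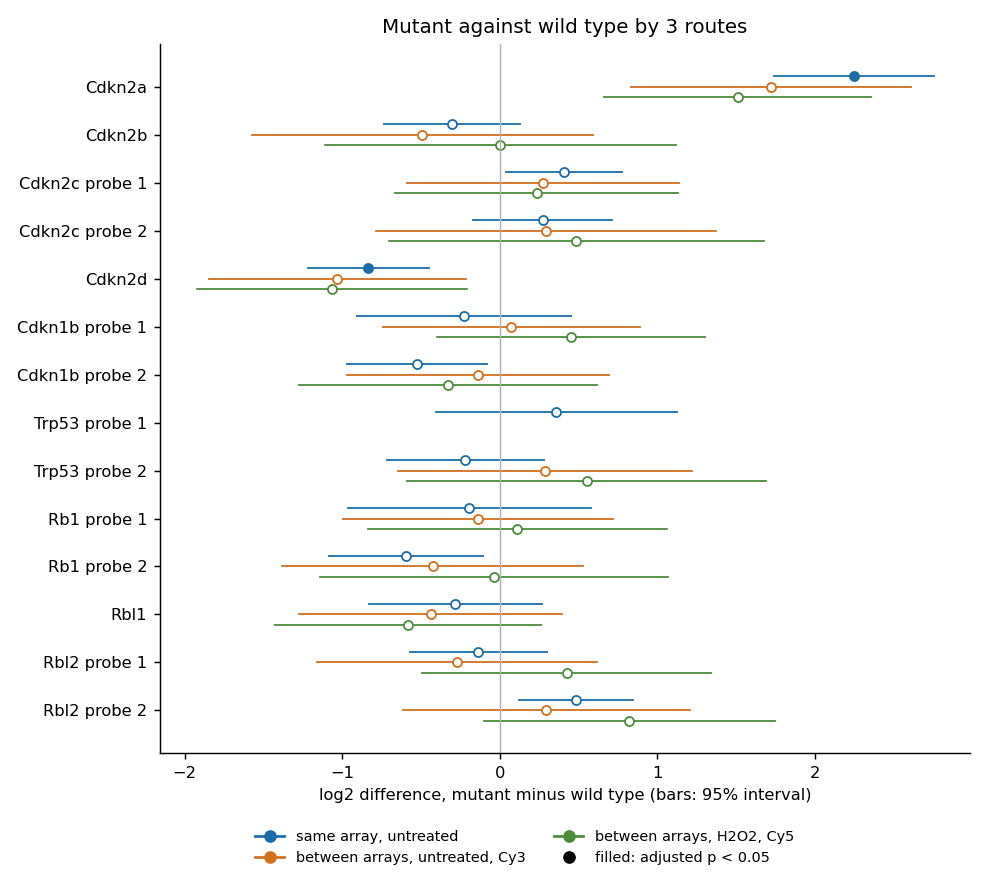
Mutant minus wild type for each member probe on the log2 scale, by 3 routes: on the same arrays in untreated cells, between arrays in untreated cells (Cy3) and between arrays in H2O2-treated cells (Cy5), with 95% intervals and filled points at an adjusted p under 0.05. Cdkn2a lies above 0 at 2.25, 1.72 and 1.51 and Cdkn2d below 0 at -0.83, -1.03 and -1.07, and the intervals of most other members include 0.

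For every other member the intervals of the comparisons between arrays included 0. Rbl1, Rb1 probe 2 and Cdkn1b probe 2 were below 0 by all 3 routes. Rbl1 was at -0.28, -0.44 and -0.58, and Rb1 probe 2 at -0.60, -0.43 and -0.04. Both Cdkn2c probes and Rbl2 probe 2 were above 0 by all 3, the last at 0.48, 0.30 and 0.82. The routes within Cy3 and within Cy5 use the 2 channels of the same 4 arrays, so they are not independent of each other. Trp53 probe 2 changed sign, from -0.22 on the same arrays to 0.29 and 0.55 between arrays. For this probe the mutant RNA in Cy5 on replicates 3 and 4 read 0.86 lower than the mutant RNA in Cy3 on the mutant treatment arrays. The same quantity was -0.67 and -0.60 for the Cdkn1b probes, 0.19 for Cdkn2a and 0.07 for Cdkn2d, and its median size over all probes was 0.34. These readings come from different dyes, cultures and days, which cannot be told apart.

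H2O2 gave smaller ratios at the members than the genotype did at Cdkn2a. In wild type cells none of the 13 member probes with a value was called by limma, and 104 of 40303 probes, 0.258%, were. The ratios ran from -0.51 for Cdkn1b probe 1 to 0.65 for Rbl1, with a median of -0.07 beside -0.01 over all probes. In mutant cells no member and no probe at all was called, and the smallest adjusted p on the array was 0.155. The member ratios ran from -0.20 for Cdkn2c probe 1 to 0.87 for Rb1 probe 1, with a median of 0.12 beside 0.0059 over all probes. At an unadjusted p under 0.05, 1 member passed in wild type cells (Rbl1) and 3 passed in mutant cells (Cdkn2b, Rb1 probe 1 and Rbl2 probe 2), against 20% and 12% of all probes.

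Cdkn2a itself had ratios of 0.26 and 0.27 in treated wild type cells. In treated mutant cells the arrays gave 0.45 and -0.35. The means of 0.27 ± 0.21 and 0.05 ± 0.21 (SE, n = 2 arrays each) had adjusted p-values of 0.56 and 0.951, and their 95% intervals reached up to 0.77 and 0.56. Cdkn2d was at -0.24 and 0.02 in wild type and at -0.12 and -0.18 in mutant cells, with adjusted p-values of 0.772 and 0.777.

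Rb1 probe 1 and Rbl1 were above 0 on all 4 treatment arrays. Rb1 probe 1 was at 0.77 and 0.46 in wild type cells and at 0.67 and 1.07 in mutant cells. Its means of 0.62 ± 0.33 and 0.87 ± 0.33 (SE) had adjusted p-values of 0.353 and 0.376. Rb1 probe 2 was at -0.23 and -0.02 in wild type and at 0.14 and 0.39 in mutant cells, so the probes of Rb1 differed in wild type cells. Rbl1, the gene with an E2F motif 18 bases before its start, was at 0.71 and 0.58 in wild type and at 0.62 and 0.39 in mutant cells. Its means were 0.65 ± 0.23 and 0.50 ± 0.23 (SE), with adjusted p-values of 0.187 and 0.45.

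Whether these responses were called depended on which arrays set the spread. The fit estimates 1 spread per probe over all 6 arrays, and for Rb1 probe 1 and Rbl1 the arrays of mutant against wild type cells, at 0.53 and -0.92 and at 0.17 and -0.74, were further apart than the treatment arrays. When every comparison took its spread from its own 2 arrays, 4 of 13 member probes passed in wild type cells, where 25.1% of all probes did: Rbl1 (adjusted p = 0.00665), Rb1 probe 1 (0.0108), Cdkn1b probe 1 (0.0281, lower) and Rbl2 probe 1 (0.0458, lower). In mutant cells 3 of 13 passed, where 10.7% of all probes did: Rb1 probe 1 (0.00281), Rbl2 probe 2 (0.0391) and Cdkn2b (0.048). Leaving out either of the arrays of mutant against wild type cells likewise let 3 member probes pass in each genotype, among 22.8% and 9.91% of all probes. With a spread from 2 arrays, these p-values rest on the spread between a single pair of arrays.

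Rbl2 and Cdkn2b had higher ratios in mutant than in wild type cells, by differences that did not pass the test below. Rbl2 probe 2 was at 0.05 and -0.06 in treated wild type cells and at 0.60 and 0.45 in treated mutant cells, so the arrays of the 2 genotypes did not overlap. The mutant response had a mean of 0.53 ± 0.15 (SE) and an adjusted p of 0.294. Rbl2 probe 1 was at -0.51 and -0.31 in wild type and at 0.53 and 0.04 in mutant cells, again without overlap, though its Cy5 signal was well above background on only 1 array of each pair. The responses of the genotypes did not overlap for 4 of 11 member probes, the mutant higher in each, whereas they did not for 47.4% of 29913 probes, and the mutant was higher for 22.3%. Cdkn2b was at 0.0066 on the 1 wild type array with a value and at 0.60 and 0.41 on the mutant arrays. With outlier spots kept, the wild type arrays gave 0.03 and 0.41 and the mutant arrays 0.60 and 0.46.

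The test of the difference, the response of mutant cells minus that of wild type cells, called no member and no probe, and its smallest adjusted p was 0.155. Rbl2 had the largest member differences, 0.70 ± 0.26 for probe 1 and 0.53 ± 0.22 for probe 2 (SE, n = 4 arrays), with adjusted p-values of 0.827 and 0.837 by limma. These 2 were the members with an unadjusted p under 0.05, against 5.94% of all probes. For Cdkn2a the difference was -0.21, with a 95% interval of -0.93 to 0.51, and for Cdkn2d it was -0.04, with an interval of -0.58 to 0.51. For Trp53 probe 2 it was 0.27, with an interval of -0.44 to 0.97. The intervals of Cdkn2a and Trp53 thus reached beyond 0.9 on the log2 scale, so a difference of that size lies within the intervals that 2 arrays a genotype give.

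Trp53 and Cdkn1b gave no call after H2O2 in either genotype, on all 6 arrays. Trp53 probe 2 was at -0.58 and -0.11 in wild type and at -0.26 and 0.10 in mutant cells. Cdkn1b probe 1 was at -0.69 and -0.32 in wild type cells, and probe 2 at 0.10 and 0.40, so the probes of this gene pointed in opposite directions on both arrays. In mutant cells probe 1 was at -0.25 and 0.00061 and probe 2 at -0.15 and 0.28. In a model of separate channels with a dye term, which takes the dyes as read, several of these responses changed sign. Those of Trp53 probe 2 became 0.28 in wild type and 0.57 in mutant cells, from means of -0.35 and -0.08. Those of Cdkn1b became -0.0042 and 0.36 for probe 1 and 0.72 and 0.55 for probe 2, so the probes no longer pointed in clearly opposite directions. Those of Cdkn2a became -0.08 and -0.29, and the wild type response of Rb1 probe 2 became 0.01. Cdkn2c probe 1 was between -0.23 and -0.10 on all 4 treatment arrays, with adjusted p-values of 0.633 and 0.651.

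The genes whose intensities followed Cdkn2a most closely over the 12 channels were 2510002D24Rik (Pearson r = 0.982), Cd320 (0.981), the transcobalamin receptor, and Olfm1 (0.979), among 8056 probes with a mean log2 intensity above 6. For Cdkn2b, over 10 channels, they were 5730507C01Rik (r = 0.962), Hmga2 (0.961), a chromatin protein of proliferating embryonic cells, and LOC240498 (0.955). Channels of 1 array and 1 culture are not independent, so these correlations describe the arrays and carry no test.

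The pathway around the members was described by 12 lists, and each is given by its counts beside the 9.83% of all probes called higher and the 9.78% called lower in untreated mutant cells. Of 109 list probes called in this comparison, 101 of the 106 with a value had the same sign between arrays within Cy3 and 87 of 106 within Cy5, and 6 were also called within Cy3, Plac8 and Ccl2 among them. Of 30 genes named here with more than 1 probe, 16 had a probe that was not called. Genes of the cell division programme that E2F controls were on the lower side. Of 29 probes for S phase targets of E2F, 7 were called lower (24.1%) and none higher, with a median of -0.49 over 23 genes beside -0.0017 over all probes. They included Rrm2, a subunit of ribonucleotide reductase, at -1.59 ± 0.18 (SE, adjusted p = 0.00332), the helicase subunit Mcm3 at -1.37 and the flap endonuclease Fen1 at -1.24. The second Mcm3 probe was at -0.32 and was not called. Of 28 probes for proliferation markers, 11 were called lower (39.3%) and none higher. Among them were the topoisomerase Top2a (at least 3.98-fold), the spindle motor Kif11 (at least 3.46-fold) and Hmmr (3.31-fold as measured). The mutant signal of these probes was not well above background on either array. A value given as at least is therefore a bound, while that of Hmmr is the measured fold. These values hold for the signal on these arrays only and leave out its spread. Between arrays the same probes were at -1.24, -0.44 and -1.665 within Cy3 and at -0.68, 0.07 and -0.80 within Cy5. The second Kif11 probe was called at -0.72.

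Of 23 probes for cyclins and kinases of G1 and S, 9 were called lower and 1 higher. The phosphatase Cdc25a was at -2.32 ± 0.22 (SE, adjusted p = 0.00312) and cyclin Ccne2 at -1.53, whereas Cdk2 had 1 probe called higher at 0.87 and 1 called lower by at least 2.24-fold. Ccnd1, a cyclin D, had a value on 1 array, -0.18, and was not called. Among E2F and DP factors 2 of 19 probes were called lower (10.5%), both of Tfdp1, whose larger value of -1.32 came from 1 array. E2f1 was at -0.45 and -0.27 by its 2 probes and was not called. Of 7 probes for the MuvB proteins, which bind p107 and p130, and for B-Myb, 1 was called higher (14.3%) and 3 lower (42.9%). Lin37 was at -1.52 and Lin54 at -1.08. Rbbp4 had 1 probe called higher at 0.74 and 1 called lower, from 1 array, whose mutant signal was not well above background. Lin52 at -0.0077, Mybl2 (B-Myb) at -0.41 and the last Rbbp4 probe at -0.22 were not called. Lin37 did not hold that difference between arrays, at -0.15 within Cy3 and 0.15 within Cy5, whereas Lin54 was at -1.31 and -1.43. The first Rbbp4 probe was at 0.30 and -0.11.

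Regulators of the Ink4b-Arf-Ink4a locus were called on both sides, with 9 of 62 probes higher (14.5%) and 11 lower (17.7%). Those higher included the transcription factor Hbp1 at 1.51, on 1 array, the histone demethylase Kdm6b at 1.38 and the polycomb protein Cbx7 at 1.25. The other Hbp1 probe was at 0.18 and was not called. Those lower included the demethylase Kdm2b at -1.35, with a probe at -0.17 that was not called, and Myc at -1.23. Bmi1, a polycomb repressor of this locus, was called lower by 1 probe, at -1.31, while its other probe was at 0.41 and was not called. In treated wild type cells Id1, an inhibitor of basic helix-loop-helix factors, was called higher at 1.36 ± 0.15 (SE, adjusted p = 0.0404), from 1.34 and 1.39 on the 2 arrays. None of the 6 genes next to Cdkn2a and Cdkn2b was called in any comparison. The adjoining Mtap was at -0.69 and -0.65 in untreated mutant cells, with an adjusted p of 0.0539.

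**Figure D4:**
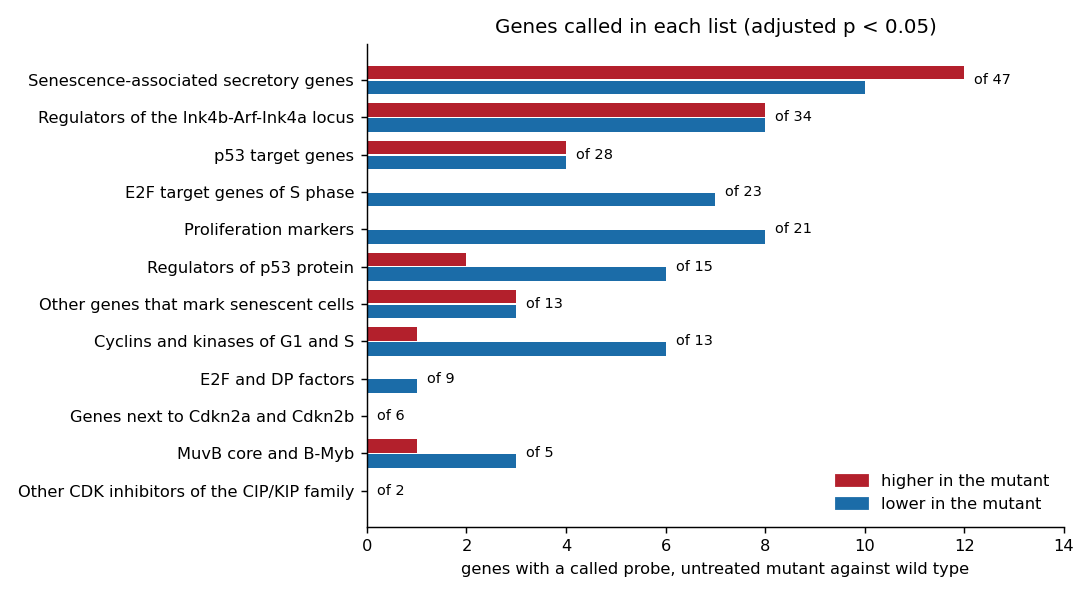
Number of genes with at least 1 called probe in each list in untreated mutant against wild type cells, higher (red) or lower (blue), with the number of genes measured beside each bar. The S phase targets of E2F and the proliferation markers have blue bars of 7 and 8 genes and no red bar, and the secretory and locus lists have both.

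Targets of p53 were split, with 5 of 45 probes called higher and 5 lower (11.1% each). Sesn1 at 1.32, the epoxide hydrolase Ephx1 at 1.10 and Gadd45a at 0.96 were called higher, and Mdm2 at -2.07, the exonuclease Aen by at least 3.62-fold and Ccng1 at -1.48 were called lower. Gadd45a was at -0.04 within Cy3 and -0.72 within Cy5, so the comparisons between arrays did not have its sign. Other probes of Sesn1, at 0.03 and 0.66, and of Aen, at -0.36, were not called. The Mdm2 value came from 1 array, and its other probe, also on 1 array, was at -0.62 and was not called. Cdkn1a, the CIP/KIP inhibitor p21 and a p53 target, was at 0.20 and 0.27 and was not called (adjusted p = 0.334), and Cdkn1c was at 0.19 and 0.95 (0.145). After H2O2 no p53 target was called in either genotype, on all 6 arrays. The median of the list was 0.25 in treated wild type cells and 0.48 in treated mutant cells, beside -0.01 and 0.0059 over all probes. Proliferation markers had medians of 0.29 and 0.49 and the S phase targets of E2F of 0.56 and 0.21, without a called probe. Cyclins and kinases of G1 and S had medians of -0.46 and -0.19. Cdkn1a was at 0.50 on 1 wild type array and at 0.67 and 0.58 on the mutant arrays, with adjusted p-values of 0.297 and 0.282. That Mdm2 probe was at -0.09 on 1 wild type array and at 0.95 and 1.09 on the mutant arrays, with adjusted p-values of 0.893 and 0.24. Of regulators of p53 protein, 2 of 32 probes were called higher (Ppm1d at 1.15 and Sirt1 at 0.82) and 8 lower. Those lower included the checkpoint kinases Chek2 (at least 2.37-fold) and Atr, measured at 2.19-fold with a mutant signal not well above background. Within Cy3 that Chek2 probe was at 0.12, above 0, and within Cy5 at -0.29, and the gene's second probe was called at -0.61. The other Atr probes were at -0.06 and -0.08, and those of Ppm1d at 0.53 and -0.41, and none of these 4 was called. Sirt1 was at 0.03 within Cy3 and -0.31 within Cy5, and its second probe was not called. Within Cy5, Mdm2 was at 0.16 and Ccng1 at 0.05.

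Genes that senescent cells are known to secrete were also split, with 13 of 71 probes called higher and 14 lower. The chemokines Ccl2 at 2.83 and Ccl7 at 2.57 and the binding protein Igfbp5 at 3.10 were higher, and Cxcl12 at -3.06, Angptl4 at -2.56 and Timp1 at -2.37 were lower. The second Igfbp5 probe was at -0.21 and was not called. Serpinb2 was called higher in treated wild type cells, at a measured 3.06-fold (adjusted p = 0.0465 by limma), where its untreated signal was not well above background. Of the other genes that mark senescent cells, 3 of 27 probes were called higher and 6 lower in untreated mutant cells. Plac8 was at 7.29 (adjusted p = 8.37e-05), Cd9 at 2.25 and Bhlhe40 at 1.12, the last 2 on 1 array each, while Uchl1 was lower by at least 2.74-fold, Hmgb1 was at -1.52 and Hmgb2 at -1.48. Of the 4 Hmgb1 probes, 3 were called, at -0.79, -1.30 and -1.52, and the brightest was at 0.01 and was not (adjusted p = 0.978 by limma). Within Cy3 and within Cy5, Cd9 was at 0.56 and 0.23 and Bhlhe40 at 0.41 and 0.08, and the other probes of Cd9, at -0.10 and 0.06, were not called. Bhlhe40 and Uchl1 each had a second probe that was not called, that of Bhlhe40 at 0.63 on 1 array. Uchl1 was called higher in treated wild type cells, at 1.90. Lmnb1, a lamin that falls in senescence, was at -1.60 and 1.36 on the 2 arrays and was not called (adjusted p = 0.906).

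Cdkn2a kept its sign and its call in the comparison of untreated cells under all 18 other ways of processing that leave the dyes as read, with a log2 ratio between 1.24 and 2.53. Cdkn2d kept its sign in all 18 and its call in 10, with values between -0.96 and -0.40. It lost the call without either of the mutant treatment arrays, at an adjusted p of 0.0549, which changed the spread and not the ratio. It lost it too at the study's thresholds, on the 2 arrays of the comparison alone (0.162), with replicate numbers as a block (0.0587), with the day of extraction as a random block (0.0548), with a dye term in a model of separate channels (0.0801) and with median centring in place of loess (0.388).

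**Figure D5:**
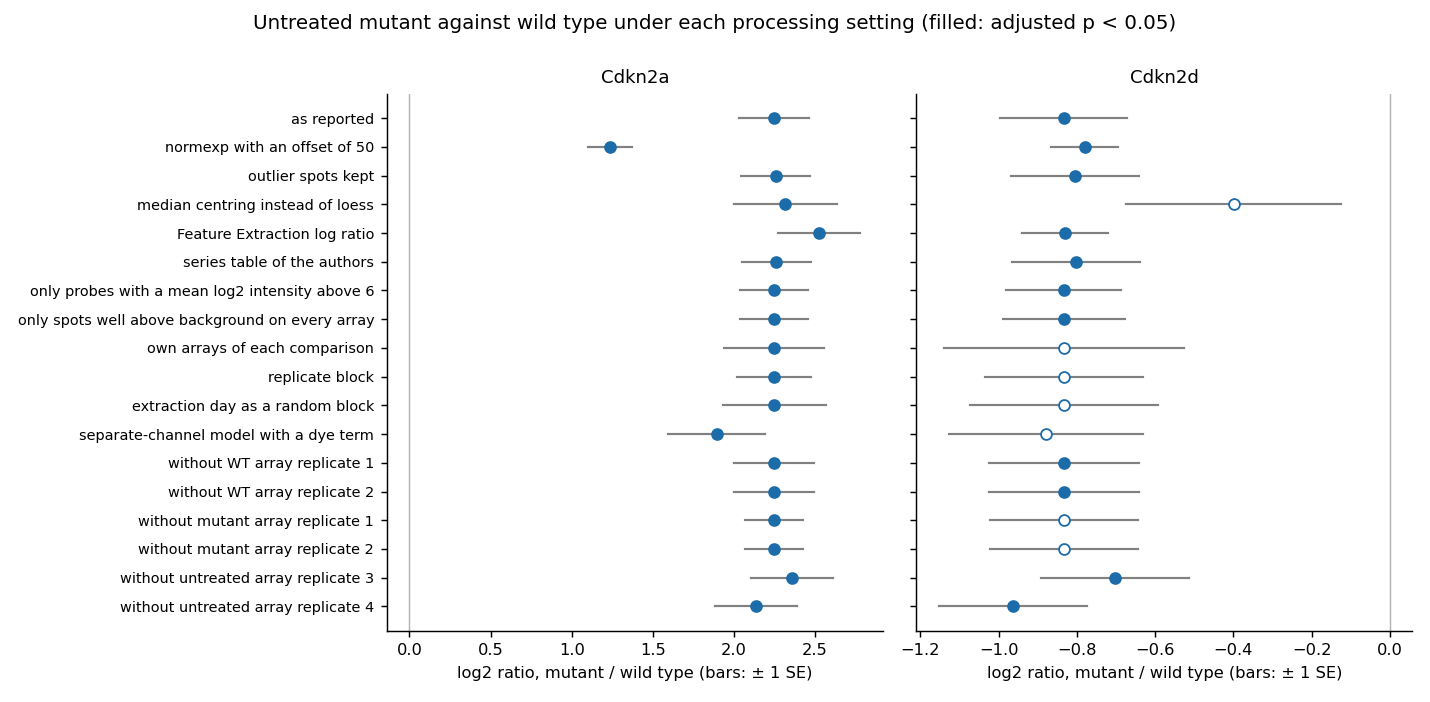
Log2 ratio of untreated mutant over wild type cells, with 1 SE, for Cdkn2a and Cdkn2d as reported and under each other setting that gives a ratio, with filled points at an adjusted p under 0.05. All Cdkn2a points are filled and lie between 1.24 and 2.53, and the open Cdkn2d points are those where the call was lost.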

How the data were processed

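Expression was measured on 6 two-colour Agilent arrays, 2 per comparison. Per the file headers, the deposited scanner tables hold the intensity of every spot in Cy3 and Cy5 with its local background, the software's flags, and its log10 ratio of Cy5 over Cy3, from Feature Extraction 7.5.1 (the study's methods name another version). The series table deposited by the authors holds log2 ratios, background subtracted and loess normalised, whose columns correlated with the ratios used here, outlier spots kept, at r of at least 0.999 and have medians of 0.0016 to 0.018. The labels name total RNA and the methods cytoplasmic RNA.

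Log2 ratios were computed with limma 3.58.1 (R 4.3.3): local background medians were subtracted, each array was loess normalised with control and outlier spots at weight 0, outlier spots were removed, saturated spots kept, and spots of a probe averaged. All 6 arrays entered 1 lmFit and eBayes fit with 1 coefficient per comparison, 3 residual degrees of freedom and two-sided p-values, Benjamini-Hochberg adjusted across every non-control probe measured. Calls are at an adjusted p under 0.05. The study's thresholds (adjusted p under 0.005, log2 intensity above 6, fold change above 2 in the treatment comparisons) were an alternative. Channel intensities were compared after Aquantile normalisation, and where every array of a group was dim, the fold is a bound against the higher of the probe's own signal and the lowest signal well above background. Where the probe's own signal was the higher, this equals the measured fold, which is then given as measured. A bound leaves out the spread between arrays. The number of arrays limits the precision. Scripts were tested on simulated data.

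The members and lists were chosen with earlier results of these data known. Named are every member probe, up to 3 called genes per list, comparison and direction, the genes Cdkn1a, Cdkn1c, Mdm2, Bmi1, Ccnd1, E2f1, Lmnb1 and Wrn, and the 3 genes most like Cdkn2a and Cdkn2b. Mtap was chosen after its value was seen. Promoter windows are from RefSeq (GRCm38.p6), and no other coordinates are given. Plots were drawn with Python 3.11.15 and matplotlib 3.10.9.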

Additional observations from a re-analysis of the deposited data

Results flagged for a closer look

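For 2 of the 11 member probes with values on all 4 treatment arrays, both wild type arrays lay on one side of 0 and both mutant arrays on the other, as did 11.6% of 29913 probes. Rbl2 probe 1 was below 0 on both wild type arrays and above 0 on both mutant arrays, with a difference of responses of 0.70 ± 0.26 (SE, n = 4 arrays), an unadjusted p of 0.0321 and an adjusted p of 0.827 by limma. Rb1 probe 2 had the same order, with a difference of 0.39 ± 0.29 (SE), an unadjusted p of 0.226 and an adjusted p of 0.93 by limma. Neither passed the test, and both probes were well above background in Cy5 on only 1 array of each pair.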

How the results depend on the processing

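In untreated cells, Cdkn2a was called higher in mutant cells under all 18 alternatives that keep the dyes as read, and Cdkn2d was called lower under 10 of them. With the dyes of the labels, Cdkn2a is at -2.25 and Cdkn2d at 0.83. Of 8061 probes and 2 members called, median centring left 4373 (2659 higher, 1714 lower; members 1), the software's ratio 3352 (1989 and 1363, beside 4040 and 4021), own arrays 2057 (members 1), the day as a random block 4600 (members 1), separate channels with a dye term 835 (members 1) and the study's thresholds 725 (487 and 238; members 1). Leaving out 1 array gave 3704 to 16160 probes and 1 to 5 members, the most without replicate 3 of the untreated arrays.

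For wild type cells after H2O2, the count of 104 became 2240 with normexp background correction (offset 50), 982 with outlier spots kept, 13 with median centring, 578 with the software's ratio, 997 in the authors' table, 489 above a log2 intensity of 6, 866 for spots well above background, 10115 on own arrays (members 4), and 0 with the day as a block, with separate channels or at the study's thresholds. Leaving out 1 array gave 0 to 9200 (members 0 to 3), the most without either untreated array. For mutant cells the count of 0 became 1875 with median centring (members 1, Rbl2 probe 2), 4380 on own arrays (members 3) and 16 with separate channels, and 0 to 4070 without 1 array (members 0 to 3). The difference of responses went from 0 to 513 on own arrays, 131 with the day and 86 with separate channels, and 0 to 513 without 1 array. Within Cy3, 196 became 0 with normexp, 302 with outlier spots kept (members 1) and 587 above an intensity of 6 (members 1), and 0 to 4866 without 1 array (members 0 to 1). Within Cy5, 132 became 0 with normexp and 0 to 2667 without 1 array (members 0 to 1). The lone array left in such a fit is assumed to vary like the others. The cause of these shifts was not tested.

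Same-numbered treatment arrays did not deviate together (r = -0.046 over 29913 probes). This r rests on so few arrays per genotype that it cannot decide whether the shared numbers pair the samples. With a replicate block, 0 probes were called in wild type cells and 3452 in untreated mutant against wild type cells (members 1).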
